A study of Mus musculus with 8 samples.

Results

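The genes described here are 10 members of the NF-κB system in cultured mouse embryonic kidney. They comprise the 5 subunit genes *Nfkb1*, *Nfkb2*, *Rela*, *Relb* and *Rel*. The others are the inhibitor genes *Nfkbia* and *Nfkbie*, the atypical IκB gene *Bcl3*, and the feedback genes *Tnfaip3* and *Birc3*. The 10 genes were chosen by name and not by their measured values, but with earlier results of these data known. Each matched 1 of the 30890 genes of the count table. All 10 were among the 16723 genes that passed the filter on low counts. Kidneys of C57BL/6 embryos at E12.5 had been cultured for 72 h, 4 of them with the GSK-3 inhibitor CHIR99021 at 5 µM and 4 with the vehicle DMSO at 0.1%, and their RNA was sequenced. Per the study's methods, the left kidney of an embryo served as control and the right one was treated, and kidneys that did not show the usual response of Wnt/β-catenin target genes were left out. No gene was altered in these animals, and the kidneys were whole explants on a floating filter, without circulation. Library totals ran from 14599082 to 17751992 counts with DMSO and from 14616300 to 16872129 counts with CHIR99021.

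NF-κB proteins act as dimers of 5 related subunits. *Rela*, *Relb* and *Rel* encode subunits with an activation domain, whereas *Nfkb1* and *Nfkb2* encode precursors that are trimmed to the DNA-binding subunits p50 and p52. IκB proteins hold the dimers in the cytoplasm until the IκB kinase marks them for the ubiquitin ligase β-TrCP, the same ligase that recognises β-catenin once GSK-3 has phosphorylated it. Several of the genes that NF-κB switches on encode its own inhibitors and subunits, so that transcripts such as *Nfkbia* and *Tnfaip3* are widely used as readouts of the pathway. In the kidney the pathway is best known from inflammation and tubular injury.

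NF-κB dimers bind DNA at κB sites, and for each gene with a match to the κB consensus 1 promoter stretch is shown here because several of the genes are textbook targets of their own pathway. RefSeq start sites on GRCm38.p6 gave windows of 250 bases before to 50 bases after the start for 8 of the 10 genes, 11 windows in all. *Nfkb1* and *Relb* had no entry. A κB consensus match on either strand was found in 8 of the 11 windows, which belong to 6 genes, and windows of *Rela* and *Birc3* held none. Among 32851 promoter windows of all genes 8.46% held such a match, and among the 14885 windows of tested genes 10.6% did. Each stretch is written 5′ to 3′ on the strand of the gene, with the matching bases in capitals.
*Bcl3*, chr7:19822734-19822763, minus strand: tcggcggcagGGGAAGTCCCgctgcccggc
*Tnfaip3*, chr10:19015411-19015565, minus strand: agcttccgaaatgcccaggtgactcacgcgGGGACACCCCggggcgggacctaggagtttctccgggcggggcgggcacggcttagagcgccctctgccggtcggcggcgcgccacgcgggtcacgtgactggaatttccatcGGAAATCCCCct
*Rel*, chr11:23771021-23771091, minus strand: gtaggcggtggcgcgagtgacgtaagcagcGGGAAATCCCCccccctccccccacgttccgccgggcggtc
*Nfkbia*, chr12:55492648-55492706, minus strand: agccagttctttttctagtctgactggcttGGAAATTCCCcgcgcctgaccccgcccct
*Nfkbie*, chr17:45555564-45555633, plus strand: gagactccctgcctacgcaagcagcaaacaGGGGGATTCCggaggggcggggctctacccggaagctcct
*Nfkb2*, chr19:46304668-46304736, plus strand: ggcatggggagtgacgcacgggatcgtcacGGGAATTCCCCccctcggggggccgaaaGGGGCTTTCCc
The matches of *Rel* overlap each other, as do a pair of those of *Nfkb2*. The stretch of *Nfkb2* is from the first of its 3 windows, and the other windows hold 2 more matches that are not shown. The letters CTTTGAT, the core that TCF/LEF factors bind with β-catenin, were found on neither strand in any window of the 8 genes, against 3.73% of all windows and 2.58% of those of tested genes. A match of letters is a description of the sequence and does not show binding.

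Of the 10 genes, 4 changed between the groups and none of these by as much as 2-fold. *Bcl3*, *Rel* and *Nfkbia* rose with CHIR99021 and *Nfkb1* fell, at an adjusted p under 0.05 by edgeR's quasi-likelihood test with Benjamini-Hochberg adjustment over all tested genes. This share of 40.0% stands beside 48.7% of all tested genes called in either direction, with 25.0% called lower and 23.7% called higher. A change past 2-fold was called for 13.8% of all tested genes and for 0 of the 10. The 4 samples of each group did not overlap in CPM, the count of a gene divided by its scaled library size, for 4 of the 10 genes and for 46.1% of all tested genes. The median absolute log2 fold change was 0.24 over the 10 genes and 0.27 over all tested genes. The share of called NF-κB genes was thus near that of the table as a whole. In RNA from whole kidneys, fewer cells of a type and less RNA per cell cannot be told apart.

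**Figure D1:**
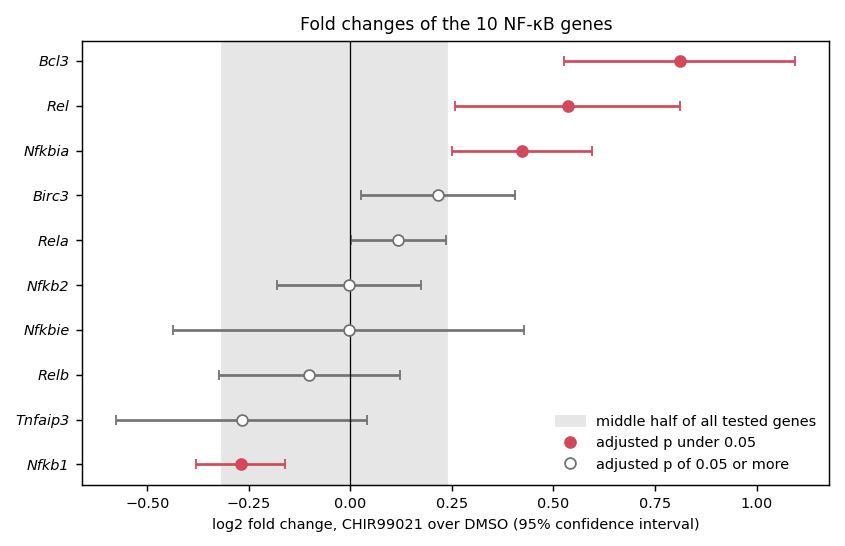
Log2 fold change of CHIR99021 over DMSO for each of the 10 genes on the horizontal axis, with 95% confidence intervals from edgeR (n = 4 per group). Filled points mark an adjusted p under 0.05, and the grey band spans the quartiles of all tested genes, -0.32 to 0.24; *Bcl3*, *Rel* and *Nfkbia* lie above this band.

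The labels give both groups replicate numbers 1 to 4, without saying that equal numbers come from the same embryo. Since kidneys of a number correlated after removal of the group means, the groups were also compared with the number as a block. With the block, 6 of the 10 genes and 50.7% of all tested genes were called. The pair that was added was *Tnfaip3*, lower with a log2 fold change of -0.26 (adjusted p = 0.0276, edgeR), and *Birc3*, higher with 0.22 (adjusted p = 0.0466, edgeR). The other 8 genes stayed on their side of the threshold.

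Among the precursor genes, *Nfkb1* (ENSMUSG00000028163; GRCm38 chromosome 3, 135584655 to 135691547) fell. It stood at 94.0, 93.8, 85.6 and 93.9 CPM in DMSO replicates 1 to 4 and at 76.4, 79.7, 75.1 and 73.5 CPM in CHIR99021 replicates 1 to 4. All CHIR99021 samples lay below all DMSO samples. The mean went from 91.8 ± 4.13 to 76.2 ± 2.61 CPM (SD, n = 4), a log2 fold change of -0.27 (SE 0.050, 95% interval -0.38 to -0.16, adjusted p = 0.000695, edgeR).

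*Nfkb2* (ENSMUSG00000025225; chromosome 19, 46304737 to 46312090), which encodes the p52 precursor of the non-canonical pathway, did not pass the test. Its DMSO values were 35.7, 37.2, 33.0 and 36.5 CPM and its CHIR99021 values 36.4, 40.7, 31.3 and 33.5 CPM. The groups overlapped, with the treated kidney higher in 2 of 4 pairs. The log2 fold change of -0.0034 has an interval of -0.18 to 0.17 (adjusted p = 0.976, edgeR). In the GENCODE M21 annotation 18.1% of the exon bases of *Nfkb2* also lie in exons on the opposite strand, those of *Psd* among them, which had 127 to 233 counts a sample against 436 to 659 for *Nfkb2*. The labels and methods do not state if strand was used in counting.

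The level of *Nfkb2* relative to *Nfkb1* was also compared within each sample, which needs no scaling of the libraries. The log2 ratio of their counts was -1.40, -1.33, -1.37 and -1.36 in the DMSO samples and -1.07, -0.97, -1.26 and -1.13 in the CHIR99021 samples. The ratio was higher in all treated samples than in any control, by 1.20-fold. A two-sided exact permutation test gave p = 0.0286, the smallest that 4 against 4 samples allow, and 0.0952 after adjustment over the 5 ratios tested.

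Among the subunits with an activation domain, *Rela* (ENSMUSG00000024927; chromosome 19, 5637483 to 5648130), the partner of p50 in the canonical dimer, had 64.9, 64.0, 70.5 and 69.6 CPM with DMSO and 72.1, 77.1, 72.8 and 69.9 CPM with CHIR99021. The groups overlapped by DMSO replicate 3 and CHIR99021 replicate 4, and the treated kidney had the higher value in 4 of 4 pairs. Its log2 fold change of 0.12 (interval 0.0019 to 0.24) did not pass the adjustment (adjusted p = 0.0869, edgeR), and it became -0.018 when libraries were scaled by their total counts.

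*Relb* (ENSMUSG00000002983; chromosome 7, 19606217 to 19629438), the usual partner of p52, stood at 16.7, 19.6, 16.5 and 17.9 CPM with DMSO and at 16.6, 18.9, 16.3 and 14.1 CPM with CHIR99021. The groups overlapped over most of their range, and the log2 fold change was -0.10 (interval -0.32 to 0.12, adjusted p = 0.449, edgeR). The treated kidney had the lower value in each pair, by 0.01 to 0.35 on the log2 scale.

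*Rel* (ENSMUSG00000020275; chromosome 11, 23736847 to 23770970), the c-Rel gene and best known from lymphocytes, rose. Its values were 10.2, 12.2, 10.7 and 8.64 CPM with DMSO and 14.2, 12.9, 17.2 and 16.4 CPM with CHIR99021. The lowest treated sample, replicate 2, lay just above the highest control, which was replicate 2 as well. The mean went from 10.4 ± 1.47 to 15.2 ± 1.95 CPM, a log2 fold change of 0.54 (SE 0.13, interval 0.26 to 0.81, adjusted p = 0.00377, edgeR). Within pairs the difference was smallest in number 2, at 0.080 on the log2 scale, and largest in number 4, at 0.92.

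The lymphocyte markers bear on the *Rel* values because that gene is abundant in lymphocytes. Their summed level was 10.5 to 14.8 CPM with DMSO and 7.30 to 9.10 CPM with CHIR99021. It rests on 9 markers, of which only 3 passed the filter on low counts and 1 was called lower. Within the DMSO group replicate 2 was highest and replicate 4 lowest in both this sum and *Rel*. Within the CHIR99021 group the sum was highest in replicate 2 and lowest in replicate 4, while *Rel* was lowest in replicate 2 and highest in replicate 3. Between the groups the sum was lower with CHIR99021 and *Rel* was higher. The part of lymphocytes in the *Rel* values was not tested. *Ms4a1* and *Ncr1* were at 0 in all CHIR99021 samples. *Cd79b*, of the B-cell receptor, fell with a log2 fold change of -1.23 (adjusted p = 0.000368, edgeR), and *Lck*, a T-cell kinase, had -0.13 (adjusted p = 0.480, edgeR).

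**Figure D2:**
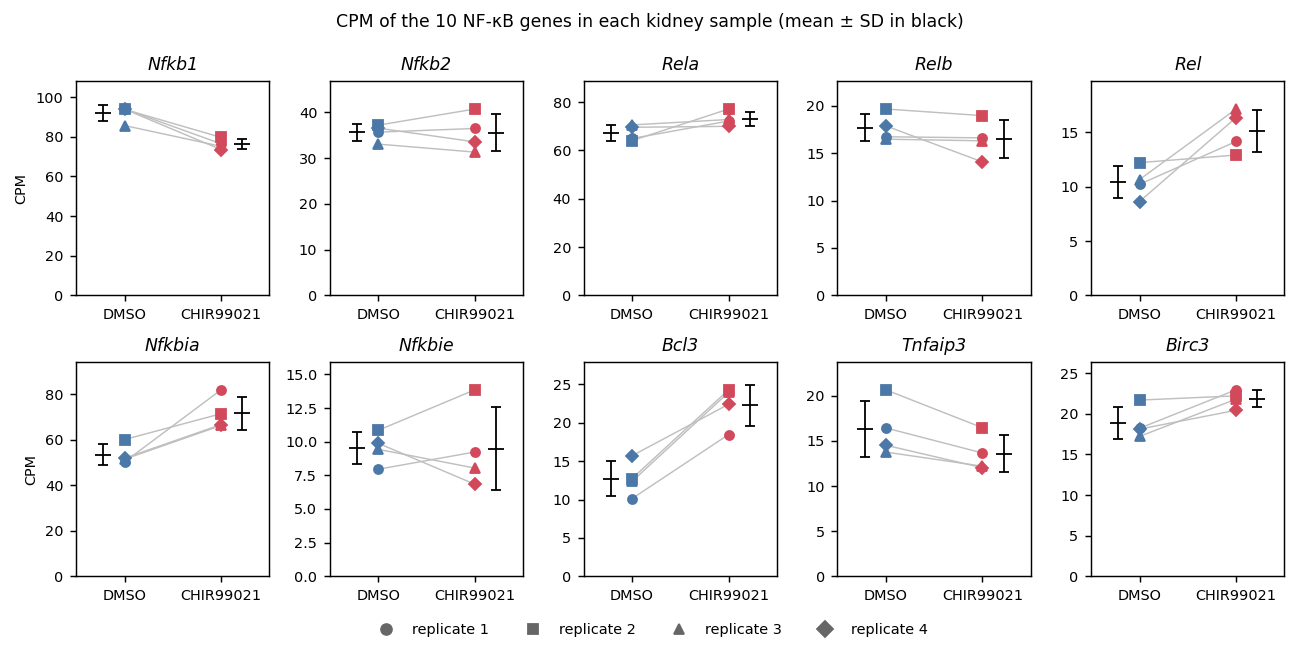
CPM of the 10 genes in every sample, with DMSO on the left and CHIR99021 on the right of each panel, symbols for the replicate number, grey lines joining equal numbers and black bars for the mean ± SD (n = 4). The groups do not overlap for *Nfkb1*, *Rel*, *Nfkbia* and *Bcl3*.

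Of the IκB genes, *Nfkbia* (ENSMUSG00000021025; chromosome 12, 55489410 to 55492647) encodes IκBα, the fast feedback inhibitor whose start site follows the κB match shown above. It had 50.3, 60.1, 51.5 and 51.9 CPM with DMSO and 82.0, 71.5, 66.3 and 66.7 CPM with CHIR99021. Every treated sample was above every control, with replicate 2 highest among the controls and replicate 1 highest among the treated. *Nfkbia* rose from 53.5 ± 4.50 to 71.6 ± 7.30 CPM, a log2 fold change of 0.42 (SE 0.079, interval 0.25 to 0.59, adjusted p = 0.000701, edgeR). FPKM is the deposited level per exon length. On the scale log2(FPKM + 0.1), after quantile normalization between samples, the change was 0.27 and no longer passed (adjusted p = 0.0737, limma).

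*Nfkbie* (ENSMUSG00000023947; chromosome 17, 45555716 to 45563169) encodes IκBε, a slower inhibitor of the same dimers. It stood at 7.95, 10.8, 9.43 and 9.88 CPM with DMSO and at 9.24, 13.9, 8.04 and 6.84 CPM with CHIR99021. The treated values enclosed the controls on both sides. The log2 fold change of -0.0043 has an interval of -0.44 to 0.43 (adjusted p = 0.987, edgeR), which is wide enough to hold the change measured for *Nfkbia*. Within samples the log2 ratio of *Nfkbie* to *Nfkbia* differed by -0.47 between the groups, which the exact permutation test did not separate (two-sided p = 0.143, adjusted p = 0.143).

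*Bcl3* (ENSMUSG00000053175; chromosome 7, 19808462 to 19822770) encodes a nuclear IκB protein that binds p50 and p52 dimers on DNA, and it had the largest change of the 10 genes. Its values were 10.1, 12.7, 12.4 and 15.7 CPM with DMSO and 18.5, 24.3, 24.0 and 22.4 CPM with CHIR99021. The lowest treated sample, replicate 1, lay above the highest control, replicate 4. *Bcl3* rose from 12.7 ± 2.30 to 22.3 ± 2.67 CPM, a log2 fold change of 0.81 (SE 0.13, interval 0.53 to 1.10, adjusted p = 0.000233, edgeR). The within-pair differences were 0.87, 0.93, 0.96 and 0.51 on the log2 scale. *Gm16175*, whose exons cover 6.51% of those of *Bcl3* on the opposite strand, had 2 to 6 counts a sample against 187 to 363 for *Bcl3*.

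The genes whose pattern over the 8 samples was most like that of *Bcl3*, by the root mean square difference of centred log2 CPM, were *H6pd* at 0.080, *Rab15* at 0.10 and *Thbs1* at 0.11. Their log2 fold changes were 0.85, 0.83 and 0.85, and the median of this measure over all tested genes was 0.49.

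Of the feedback genes, *Tnfaip3* (ENSMUSG00000019850; chromosome 10, 19000910 to 19015657) encodes A20, which edits ubiquitin chains upstream of the IκB kinase. It had 16.4, 20.7, 13.8 and 14.5 CPM with DMSO and 13.7, 16.5, 12.2 and 12.0 CPM with CHIR99021. Replicate 2 was the highest of both groups, and the groups overlapped. The log2 fold change was -0.27 (SE 0.14, interval -0.58 to 0.042, adjusted p = 0.141, edgeR). Within pairs the treated kidney was lower in 4 of 4, by 0.33 at most and 0.17 at least on the log2 scale, and the test with the block called the gene lower (adjusted p = 0.0276, edgeR). Without DMSO replicate 2 the log2 fold change was -0.14 (adjusted p = 0.415, edgeR). On the quantile-normalized scale log2(FPKM + 1) it was -0.056 (adjusted p = 0.755, limma). *Tnfaip3* and *Nfkbia*, whose promoter windows both hold a κB match, had fold changes of opposite sign. That of *Tnfaip3* did not pass the main test.

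*Birc3* (ENSMUSG00000032000; chromosome 9, 7848699 to 7873186) encodes cIAP2, a ubiquitin ligase at the TNF receptor complex. It stood at 18.2, 21.7, 17.2 and 18.1 CPM with DMSO and at 23.0, 22.2, 21.8 and 20.4 CPM with CHIR99021. DMSO replicate 2 reached into the treated range and the other controls lay below it. The log2 fold change was 0.22 (SE 0.087, interval 0.026 to 0.41, adjusted p = 0.0577, edgeR), with the treated kidney higher in 4 of 4 pairs. Without DMSO replicate 2 the gene passed the test (adjusted p = 0.0142, edgeR), as it did with the block. Of its 50-base stretches 5.96% also occur in other genes, mainly in *Gm7019*, which had at most 3 counts in a sample. Stretches shared with the related gene *Birc2* were counted for *Birc2* alone, of whose stretches 1.49% occur in other genes, mainly *Birc3*.

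DMSO replicate 2 and CHIR99021 replicate 2 were each the highest of their group for 7 of the 10 genes, and both for *Nfkb2*, *Relb*, *Nfkbie* and *Tnfaip3*.

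Levels of different genes can be compared only per length, for which the deposited FPKM values were used. *Nfkbia* was the most abundant of the 10 with DMSO, at 34.7 ± 2.79 FPKM, followed by *Rela* at 25.9 ± 1.43, *Nfkb2* at 11.3 ± 0.51 and *Nfkb1* at 7.96 ± 0.31 FPKM (SD, n = 4). These levels did not overlap between neighbours in the order. The exon lengths behind these values are 1610 bases for *Nfkbia*, 2716 for *Rela*, 3289 for *Nfkb2* and 12061 for *Nfkb1*. GENCODE M21 gives 3072 bases for *Rela* and 4584 for *Nfkb2*, so the order and its gaps hold only for the lengths used. *Bcl3* at 5.38, *Relb* at 4.76, *Nfkbie* at 4.11 and *Birc3* at 3.93 FPKM followed, and each of these overlapped the next. *Tnfaip3* at 2.36 and *Rel* at 1.46 FPKM were lowest and overlapped neither their neighbours above nor each other.

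With CHIR99021, *Nfkbia* at 42.4 FPKM and *Rela* at 25.6 FPKM kept the first places. *Bcl3* at 8.58 FPKM stood above *Nfkb1* at 6.02 FPKM, without overlap, where it had stood below with DMSO. *Rel* at 1.93 FPKM stood above *Tnfaip3* at 1.79 FPKM, with overlap. *Nfkb2* at 10.3, *Birc3* at 4.16, *Relb* at 4.04 and *Nfkbie* at 3.73 FPKM lay between. The deposited FPKM values carry no scaling beyond the library total, so that *Rela*, higher in CPM, was not higher in FPKM.

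**Figure D3:**
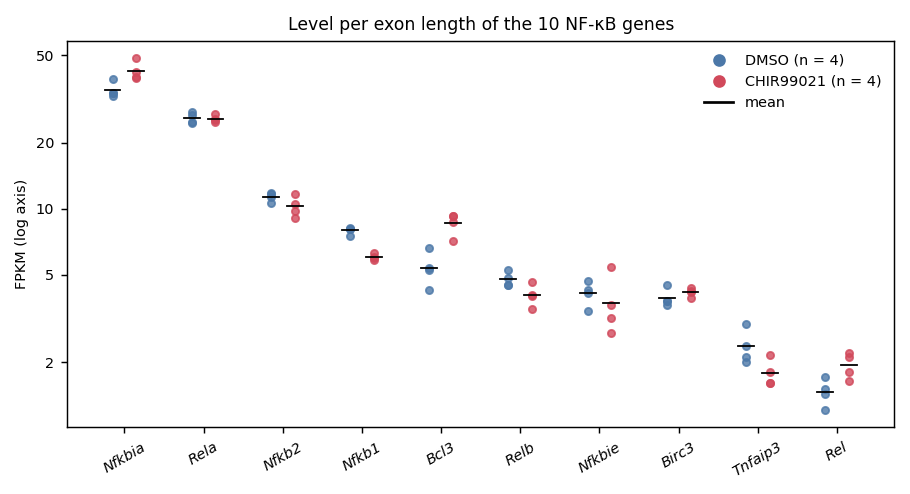
FPKM of the 10 genes on a log axis, ordered by the DMSO mean, with 1 point per sample (n = 4 per group) and bars for the means. *Nfkbia* and *Rela* lead in both groups, and the treated samples of *Bcl3* lie above those of *Nfkb1*.

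Of the summed FPKM of the 5 subunit genes, *Rela* made up 47.8 to 53.2% with DMSO and 52.6 to 54.7% with CHIR99021. *Nfkb1* made up 14.6 to 16.2% with DMSO and 12.2 to 12.7% with CHIR99021, without overlap. *Rel*, the least abundant, made up 2.30 to 3.32% and 3.21 to 4.69%. The shares of *Nfkb2*, at 20.6 to 22.9% and 19.4 to 22.9%, and of *Relb*, at 8.69 to 10.25% and 7.57 to 9.03%, overlapped between the groups. These are shares of FPKM and not of protein. They rest on the exon lengths used, among them 12061 bases for *Nfkb1* and 2716 for *Rela*. In CPM, which is not divided by length, *Nfkb1* averaged 91.8 and *Rela* 67.3 with DMSO. With CHIR99021 these means were 76.2 and 73.0 CPM.

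The remaining within-sample ratios did not pass the exact permutation test, in which a single ratio at the smallest p cannot pass the adjustment over the 5 ratios. The log2 ratio of *Relb* to *Rela* differed by -0.22 (two-sided exact p = 0.0571, adjusted p = 0.0952) and was lower in 4 of 4 pairs. The ratio of *Rel* to *Rela* differed by 0.42 (exact p = 0.0571, adjusted p = 0.0952) and that of *Nfkbia* to *Rela* by 0.30 (exact p = 0.0857, adjusted p = 0.107), each higher in 3 of 4 pairs.

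The other genes of the pathway were taken from lists by role, whose counts stand beside 25.0% of all tested genes called lower and 23.7% called higher. Of 26 tested kinases and adaptors that activate NF-κB, 5 fell, 6 rose (7 with the replicate block, which added *Irak1*) and 15 did not pass, with a median log2 fold change of 0.04 against -0.0029 over all tested genes. *Irak2*, a kinase below the IL-1 and Toll-like receptors, rose from 10.9 ± 1.46 to 18.0 ± 1.39 CPM, with a log2 fold change of 0.73 (adjusted p = 0.000134, edgeR). Its partner kinase *Irak4* rose with 0.40 (adjusted p = 0.000916, edgeR), as did *Myd88*, the adaptor both bind, with 0.41 (adjusted p = 0.00436, edgeR). An exon on the opposite strand covers 11.3% of *Myd88*. *Chuk*, which encodes the IκB kinase subunit IKKα, fell from 85.8 ± 7.63 to 66.7 ± 4.84 CPM with a log2 fold change of -0.36 (adjusted p = 0.00108, edgeR). *Tab2*, an adaptor of the kinase TAK1 and the most abundant of the list per length, had 0.07 (adjusted p = 0.270, edgeR) and -0.070 with scaling by total counts.

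Of 17 tested genes for further IκB proteins and brakes, 4 fell, 5 rose (6 with the block, which added *Nfkbiz*) and 8 did not pass, with a median log2 fold change of -0.06. *Pdlim2*, a nuclear ubiquitin ligase for the Rela protein, rose from 10.04 ± 1.43 to 24.3 ± 2.40 CPM, with a log2 fold change of 1.28 (adjusted p = 1.6e-06, edgeR). The deubiquitinase gene *Cyld* fell from 60.1 ± 2.96 to 41.5 ± 0.64 CPM with -0.53 (adjusted p = 5.26e-06, edgeR). *Tnip1*, which encodes a partner of A20, fell with -0.55 (adjusted p = 0.000223, edgeR), and *Irak3*, an inhibitory member of its kinase family, fell with -0.78 (adjusted p = 0.000911, edgeR). *Tnip2*, another partner of A20, had 0.20 (adjusted p = 0.0495, edgeR), a call that was lost with upper-quartile or total-count scaling.

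Of 17 tested receptors, 6 fell, 5 rose and 6 did not pass, with a median log2 fold change of -0.13. *Edar*, the ectodysplasin receptor of developing epithelium, rose from 0.78 ± 0.28 to 6.32 ± 0.49 CPM with a log2 fold change of 2.99 (adjusted p = 3.99e-07, edgeR). *Tnfrsf1b*, the second TNF receptor, rose with 0.97 (adjusted p = 4.8e-05, edgeR), and *Il1rap*, the shared chain of the IL-1 receptor family, rose with 0.59 (adjusted p = 3.96e-05, edgeR). *Tlr3*, a sensor of double-stranded RNA, fell from 12.9 ± 1.30 to 5.94 ± 0.90 CPM with -1.12 (adjusted p = 1.99e-05, edgeR). *Tnfrsf1a*, the main TNF receptor and most abundant per length, had 0.02 (adjusted p = 0.785, edgeR), and its sign turned with upper-quartile or total-count scaling.

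Of 7 tested ligands 3 fell, 0 rose and 4 did not pass, and the median log2 fold change was -0.52. *Tnfsf13b*, the B-cell factor BAFF, fell from 9.995 ± 1.91 to 3.51 ± 0.89 CPM with -1.51 (adjusted p = 4.25e-05, edgeR). *Eda*, the ligand of *Edar*, fell with -0.61 (adjusted p = 0.000916, edgeR), opposite in direction to its receptor. *Il18* fell from 1.34 ± 0.64 to 0.52 ± 0.33 CPM with -1.38 (adjusted p = 0.0277, edgeR). *Tnfsf12*, the ligand TWEAK, had -0.45 (adjusted p = 0.129, edgeR), and it shares 48.3% of its exon bases with the read-through gene *Tnfsfm13* on the same strand.

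Of 28 tested genes known as NF-κB targets, 8 fell, 5 rose and 15 did not pass, with a median log2 fold change of -0.21. With the replicate block 12 fell and 7 rose, among 50.7% of all tested genes called. The block added *Icam1*, *Sele*, *Il6* and *Bcl2l1* as lower and *Cxcl2* and *Cd44* as higher, genes named here because of that change of call. *Traf1*, a TNF receptor adaptor, had the lowest fold change of the list and fell from 58.2 ± 10.6 to 1.36 ± 0.23 CPM, with a log2 fold change of -5.41 (adjusted p = 1.16e-09, edgeR). *Traf1* was singled out by the study on these samples and is no independent evidence. *Plau*, the urokinase gene, fell with -1.75 (adjusted p = 7.68e-07, edgeR), and *Ccnd1*, cyclin D1, with -1.58 (adjusted p = 4.72e-08, edgeR). Exons on the opposite strand cover 23.4% of *Ccnd1*. *Ier3*, an immediate early gene of survival, rose from 38.8 ± 5.76 to 114 ± 10.7 CPM with 1.56 (adjusted p = 7.24e-07, edgeR).

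**Figure D4:**
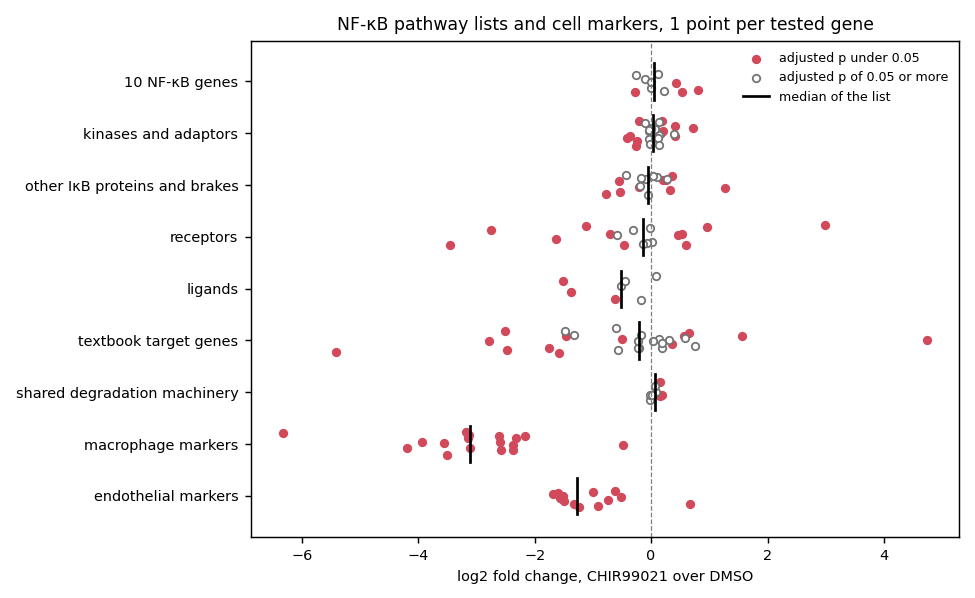
Log2 fold change of CHIR99021 over DMSO for the 10 genes, 6 lists of the pathway and the macrophage and endothelial markers, with 1 point per tested gene, filled at an adjusted p under 0.05 by edgeR, and a bar for the median. The pathway lists hold points on both sides of 0, though the highest ligand is at 0.09 and the lowest degradation gene at -0.02. The macrophage markers lie below 0, with a median of -3.12.

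Genes of the degradation machinery of β-catenin, of which NF-κB shares the β-TrCP ligase, changed little. Of 8 tested genes 3 rose, all outside that ligase, and 5 did not pass. These were *Gsk3a* with a log2 fold change of 0.18 (adjusted p = 0.0166, edgeR), *Gsk3b* with 0.15 (adjusted p = 0.0242, edgeR) and *Ctnnb1*, the β-catenin gene, with 0.15 (adjusted p = 0.0245, edgeR), and all lost the call with upper-quartile or total-count scaling. On the opposite strand, exons of other genes cover 28.3% of *Gsk3a* and 14.6% of *Ctnnb1*. *Skp1a*, a subunit of the β-TrCP complex, had 0.07 (adjusted p = 0.174, edgeR) and -0.066 with total-count scaling. *Btrc* and *Fbxw11*, named here because they encode β-TrCP, had 0.08 (adjusted p = 0.304, edgeR) and -0.014 (adjusted p = 0.855, edgeR). With total-count scaling *Btrc* turned to -0.058, and *Fbxw11* was called lower at -0.15 (adjusted p = 0.031, edgeR).

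Markers of macrophages and endothelium, cell types rich in NF-κB responses, moved with the treatment as well. Of 17 tested macrophage markers 17 fell, with a median log2 fold change of -3.12. Their summed level was 629 to 707 CPM in DMSO replicates 1 to 3, 187 in DMSO replicate 4, and 36.2 to 109 in the CHIR99021 samples. *Lyz2*, *C1qa* and *C1qb* had log2 fold changes of -4.20, -3.18 and -3.12. No marker was at 0 in all samples of a group. Of 14 endothelial markers 13 fell and 1 rose, and the summed level went from between 614 and 821 CPM to between 285 and 388 CPM. *Cdh5* fell with -1.60, *Cldn5* with -1.52 and *Pecam1* with -1.50. The summed level of the 10 NF-κB genes was 321 to 353 CPM with DMSO and 336 to 378 CPM with CHIR99021. The part that macrophages and endothelium have in the values of the 10 genes, and in those of the receptors, ligands and targets, was not tested. Without DMSO replicate 4, the control with the fewest macrophage transcripts, the same 4 of the 10 genes were called.

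**Figure D5:**
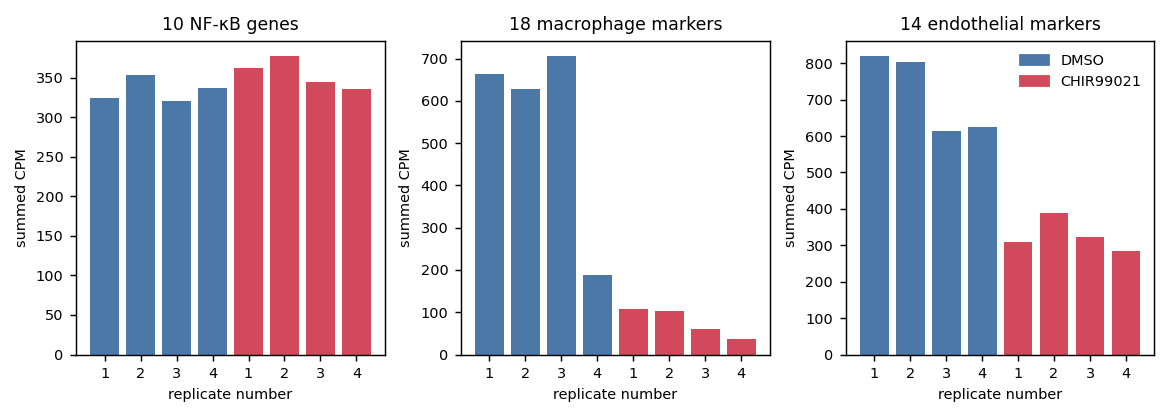
Summed CPM in each sample of the 10 NF-κB genes, the 18 macrophage markers and the 14 endothelial markers, by replicate number (1 bar per sample, DMSO blue, CHIR99021 red, each panel with its own axis from 0). The NF-κB genes stay between 321 and 378 CPM. The macrophage markers lie at 187 to 707 CPM with DMSO and at 36.2 to 109 CPM with CHIR99021.

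The samples carried the defining genes of embryonic kidney. The 14 kidney identity markers summed to 1541 to 1843 CPM with DMSO and 758 to 862 CPM with CHIR99021, where 12 fell and 0 rose (1 with the block). *Six2*, the gene of nephron progenitors, fell with -5.33, *Pax2* with -0.73 and *Sall1* with -0.52. Liver transcripts set DMSO replicates 2 and 4 apart: the erythroid and liver markers summed to 1297 and 921 CPM there, to 61.5 and 21.6 CPM in DMSO replicates 1 and 3, and to 13.8 to 18.9 CPM with CHIR99021. *Alb* did not pass the filter, and *Afp* and *Fga* had log2 fold changes of -5.46 and -7.74, calls that were lost without DMSO replicate 4. Without DMSO replicates 2 and 4 the 4 called NF-κB genes were again called, and *Birc3* joined them with 0.30 (adjusted p = 0.0360, edgeR). The 10 Wnt response genes all rose, *Tcf7* with 2.19 and *Nkd1* with 4.13, in kidneys kept for such a response, which is therefore no independent evidence.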

How the data were processed

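RNA from 8 kidney samples, 4 per group by the treatment in their labels, was sequenced. The authors aligned reads to GRCm38 with HISAT2 2.0.5 and deposited whole counts per gene from featureCounts, without scaling. The deposited FPKM values were made by the authors from these counts, per exon length and library total. RNA extraction and library kits differ between the labels (Trizol, NEBNext Ultra) and the study's methods. The table also holds the authors' own comparison of the groups (mean level, fold change, p-value and adjusted p-value), which was not used, and 0 columns of samples outside the labels. The members and gene lists were chosen with earlier results of these data known.

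The filter filterByExpr of edgeR 4.0.16 (minimum count 10, minimum total 15; R 4.3.3) set which genes were tested. After TMM scaling, a quasi-likelihood model with robust = TRUE and the treatment as its single term was fitted per gene and tested by edgeR, and the Benjamini-Hochberg adjustment ran over every tested gene, with a threshold of 0.05. The alternatives also used limma 3.58.1 and DESeq2 1.42.0. The standard error is the absolute log2 fold change over the square root of F. Ratios of 2 genes within a sample used 0.5 added to each count and a two-sided exact permutation test over the 70 arrangements of 4 against 4. The procedure was tested on simulated data. Nothing says that samples of a group came from separate litters, and p-values measure the spread between these samples.

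Neither the replicate labels nor the study's methods say that equal numbers mark kidneys of the same embryo. Kidneys of the same replicate number correlated at 0.111 to 0.346 across genes after removal of the group means, and other combinations at -0.180 to 0.0766. Pairs in the text are therefore samples of equal number, an assumption that the main fit did not use. The fit with a replicate block is an alternative, given where it changes a call or the count of a pathway list.

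Other settings comprised DESeq2, limma-voom, the replicate block, and scaling by RLE or by the upper quartile. They also comprised the table without a filter or with at least 1 CPM in 4 samples, and samples left out. On FPKM, limma was run after log2(FPKM + 1) or log2(FPKM + 0.1) and quantile normalization between samples. Changes on these scales carry that normalization as well as the unit. Scaling by total counts was added after the data were seen. The named genes are the members, from each pathway list the 4 with the smallest p and the 1 with the highest FPKM, from each marker list up to 3 with the highest FPKM with DMSO, and the 3 nearest to the member of largest change. Not every gene the rule gives is reported here. Shared exon bases and 50-base stretches come from GENCODE M21, whose exon length can differ from that of the authors' annotation, and promoters from RefSeq on GRCm38.p6.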

Additional observations from a re-analysis of the deposited data

Results flagged for a closer look

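In each treatment the 4 values of the 10 genes, of the other named genes and of the 5 ratios were examined, 120 groups in all. Of these, 6 held a sample whose gap to the others was above Dixon's 95% critical value. Chance alone flags about 1 in 20 such groups. *Nfkb1* had 85.6 CPM in DMSO replicate 3 against 93.8 to 94.0 CPM in the other controls, and this sample still lay above all CHIR99021 samples. *Nfkbia* had 60.1 CPM in DMSO replicate 2 against 50.3 to 51.9 CPM, below all CHIR99021 samples. *Ctnnb1* had 885 CPM in CHIR99021 replicate 1 against 812 CPM in the others of its group. *Sall1* had 233 CPM in CHIR99021 replicate 2 against 284 to 289 CPM. The macrophage genes *C1qa*, with 7.92 against 33.9 to 38.5 CPM, and *Lyz2*, with 53.3 against 206 to 235 CPM, were both low in DMSO replicate 4. The causes were not tested.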

How the results depend on the processing

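The calls of *Nfkb1*, *Rel* and *Bcl3* and their directions held under all 11 other settings and with each sample left out. Over the settings their adjusted p reached 0.0275, 0.0198 and 0.00749 at most. *Nfkbia* lost its call with log2(FPKM + 0.1), at 0.27 (adjusted p = 0.0737, limma). *Birc3* was called with the replicate block at 0.22, with log2(FPKM + 1) at 0.25, with log2(FPKM + 0.1) at 0.31 and without DMSO replicates 2 and 4 at 0.30, and *Tnfaip3* with the block at -0.26 and with total-count scaling at -0.40. *Tnfaip3* was nearer to 0 on the quantile-normalized scales log2(FPKM + 1), at -0.056 (adjusted p = 0.755, limma), and log2(FPKM + 0.1), at -0.077 (adjusted p = 0.756, limma). With 1 sample left out, *Birc3* ranged from 0.17 to 0.29 (adjusted p from 0.0142 to 0.155, called without DMSO replicate 2 or CHIR99021 replicate 4), *Tnfaip3* from -0.37 to -0.14, *Nfkb2* from -0.072 to 0.056 and *Nfkbie* from -0.24 to 0.13. The signs of *Nfkb2* and *Nfkbie*, both near 0, turned with DESeq2 (0.0017 and 0.00060), without a filter (0.014 and 0.013) and without DMSO replicates 2 and 4 (0.040 and 0.12), that of *Nfkbie* also with log2(FPKM + 1) (0.048) and log2(FPKM + 0.1) (0.053), and that of *Rela* with total-count scaling (-0.018). The members called lower were 2 with the block and with total-count scaling.

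Total-count scaling moved the median log2 fold change of all genes by -0.14. It called 71.0% of changed genes lower, against 51.4% with TMM and 58.5% with upper-quartile scaling, and 2507 genes higher. Of the kinases and adaptors it called 8 lower and 3 higher, of the other brakes 2 higher, of the receptors 3 higher, of the degradation machinery 2 lower and 0 higher, and of the lymphocyte markers 2 lower. For the kinases and adaptors, 3 were lower with log2(FPKM + 1) and 2 with log2(FPKM + 0.1). For the degradation machinery, 3 were lower with log2(FPKM + 1), 1 lower and 0 higher with log2(FPKM + 0.1), 0 higher with upper-quartile scaling, and 1 higher without DMSO replicates 2 and 4. Lymphocyte markers lower were 2 with the block and without DMSO replicates 2 and 4. Erythroid and liver markers lower were 8 with DESeq2, 4 with the block, 1 with the filter at 1 CPM, with log2(FPKM + 0.1) and without DMSO replicates 2 and 4, and 0 with limma-voom and log2(FPKM + 1). Kidney identity markers higher were 1 with DESeq2 and with the block. With 1 sample left out, called genes ranged from 1 to 3 for the degradation machinery (higher), 1 to 3 for lymphocyte markers, 0 to 6 for erythroid and liver markers (lower) and 0 to 1 for kidney identity markers (higher). Where no value above shows a cause, the cause was not tested. The block changed no call of a gene named by the rule other than *Tnfaip3* and *Birc3*. The 5 ratios missed the threshold throughout. With 3 against 4 samples the smallest exact p is 0.0571 and with 4 against 2 it is 0.133. With 4 pairs 0.05 cannot be reached either, so those settings could not pass. In the main setting a single ratio at the smallest exact p of 0.0286 could not pass the adjustment over 5 ratios. Genes of about 10 CPM, such as *Nfkbie* and *Rel*, rest on at least 104 counts a sample, which limits what can be detected.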
